A study of Mus musculus with 2 samples.

Results

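Cytosolic ribosomal protein genes code for the proteins of the ribosome outside the mitochondria. The 78 genes described here were chosen by name (Rpsa, Rplp0, Rplp1, Rplp2, or Rps or Rpl followed by a number and at most 1 of the letters a, l, x or y) and by holding at least 1000 unique molecular identifiers (UMIs, each standing for 1 captured RNA molecule) over both libraries. They are 78 of 55450 genes in the files, 32 for the small and 46 for the large subunit. The name alone fits 83 genes: Rpl6l with 647, Rpl3l with 178, Rpl39l with 157, Rpl32l with 31 and Rpl10l with 2 UMIs stayed outside, and the members nearest the limit were Rps4l with 1780 and Rpl13a with 31782 UMIs. Because the limit uses measured UMIs, abundance is a description here and not a finding. The rule also leaves out some ribosomal proteins with other symbols, among them Fau, Rack1 and Rps3a1, and the paralogues Rpl22l1, Rpl36al and Rpl7l1.

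The study profiled tumour-infiltrating cells by droplet sequencing of RNA 3′ ends (10x Genomics, version 3 chemistry). B16F10 melanoma cells, an established mouse line, had been injected under the skin, and CD45+ cells (CD45 marks leukocytes) were sorted from tumours of day 10. The WT library came from Kcnj2f/f mice, which carry Kcnj2 with loxP-flanked sites and no Cre. The KO library came from Lyz2-Cre-Kcnj2f/f mice, in which the Lyz2 promoter, active in macrophages, monocytes and neutrophils, drives Cre; T, B and NK cells are not the cells this driver targets. Kcnj2 codes for an inward-rectifier potassium channel. Tumours of 3 mice were pooled into each library and there is 1 library per genotype, so no difference between the libraries has a replicate check, no p-value is given, and genotype cannot be told apart from anything else that differed between the libraries. Intervals are exact 95% intervals and cover counting error only. The labels give no age.

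A ribosome is assembled in the nucleolus from ribosomal RNA and about equal amounts of each ribosomal protein, so the protein genes are usually expressed in step. Their mRNAs typically begin with a run of pyrimidines, the TOP motif, through which the kinase mTOR and the protein Larp1 set their translation. In leukocytes the mRNAs are abundant in small resting lymphocytes and make up a smaller part of the RNA of differentiated myeloid cells. A few members have paralogues, gene copies with a related protein, whose use can differ between tissues.

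The files held 9677 WT and 6356 KO barcodes with 55219440 and 57047535 UMIs, and medians of 3951 and 6827 UMIs per barcode. Filters of 200 or more genes per cell and of 15% or less mitochondrial UMIs left 8936 and 5686 cells. In the cells removed for a higher mitochondrial share (734 WT and 665 KO), members held 5.54% and 4.84% of the UMIs. Clustering without the members gave 26 clusters, of which 20 could be named from marker genes, and 1869 WT and 695 KO cells stayed unnamed. 63 barcodes occur in both libraries. Kcnj2 itself was at 22.3 CPM (UMIs per 1000000 UMIs; interval 18.2 to 27.2) in WT and 9.69 CPM (no overlap with the WT interval) in KO macrophage-like cells, and at 10.8 and 2.37 CPM in monocyte-like cells. Whether these 3′ reads fall inside the deleted part was not tested. The KO library was deeper per cell as a whole, but not in the CD8 T and CD4 T cell-like classes. Depth is given beside several of the results it touches.

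The starts of the genes are shown first because a sequence feature that the rule did not use was more frequent there than over all genes. RefSeq start sites (GRCm38.p6) were matched for 57 of the 78 members. A run of at least 5 pyrimidines (C or T) that opens with C within 5 bases of a start was present in 28 of the 57 (49.1%), against 21.2% of 27025 genes. A run of at least 8 was present in 20 of them (35.1%), against 5.17% of genes. Each line below covers 15 bases before and 15 after the start, read 5′ to 3′ on the gene's own strand, with the pyrimidine run in capitals. Most windows printed here hold a run, unlike the 57 members as a whole. Rpl38 (chr11:114668565-114668594, plus strand), Rps15a (chr7:118116133-118116162, minus) and Rps27 (chr3:90213634-90213663, minus) have runs of 8, 8 and 9 bases. Rpl27a (chr7:109519180-109519209, plus) and Rpl13a (chr7:45128731-45128760, minus) have longer ones. Rpl31 (chr1:39367836-39367865, plus) and Rps27l (chr9:66946071-66946100, plus) are class-specific members described below, and Rps19 (chr7:24884577-24884606, plus) has no such run at this start.
Rpl38: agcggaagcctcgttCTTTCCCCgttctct
Rps15a: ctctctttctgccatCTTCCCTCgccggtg
Rps27: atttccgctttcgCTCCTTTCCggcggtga
Rpl27a: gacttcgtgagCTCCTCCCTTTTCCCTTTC
Rpl13a: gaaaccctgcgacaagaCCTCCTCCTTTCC
Rpl31: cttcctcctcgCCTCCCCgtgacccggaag
Rps27l: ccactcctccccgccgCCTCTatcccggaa
Rps19: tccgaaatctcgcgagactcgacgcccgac
The run in Rps27l is 5 bases long and the run in its partner Rps27 is 9. Members with and without a run of at least 5 had near-equal spread over cell classes, with median ranges of 0.63 and 0.57 on the log2 scale described below. A match to these letters is a description and not a measured TOP motif.

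After filtering, members together made up 20.7% of the UMIs in WT and 18.5% in KO, a log2 ratio of -0.16. Per cell the median was 19.2% in WT (quartiles 10.3% and 24.5%) and 17.7% in KO (12.2% and 22.4%). The libraries also differed in their mix of cells. With KO shares in each cluster and the WT mix of clusters the total would be 20.3%, and with WT shares and the KO mix it would be 19.4%. The most abundant members were Rps29 (687859 UMIs), Rps24 (609100), Rpl32 (497883), Rpl39 (494608) and Rpl23 (479020). Since 3′ sequencing counts each captured molecule once, these counts were not scaled by gene length. The least abundant were Rpl23a (51071), Rpl24 (49207), Rps27l (37974), Rpl13a (31782) and Rps4l (1780).

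Cell class and library both went with the share. Classes were named from markers and are called by the name they resemble ("T cell-like"). B cell-like cells had the highest pooled share in WT (26.5%, against 25.3% in KO), followed by CD8 T cell-like (23.8% and 26.5%), CD4 T cell-like (23.0% and 24.2%) and NK cell-like cells (21.6% and 22.6%). Conventional type 1 dendritic (cDC1-like) cells had 21.1% and 20.6%, cDC2-like cells 20.4% and 19.3%, and plasmacytoid dendritic (pDC-like) cells 19.7% and 18.7%. The share was 19.6% and 18.9% in the regulatory T cell-like class, 19.3% and 21.01% in gamma-delta T cell-like cells, and 19.7% and 18.4% in melanoma-like cells, where markers of other cells differ between the libraries as described below. The lowest of the 13 classes with at least 50 cells in each library were monocyte-like cells (18.9% and 16.4%), migratory dendritic (migratory DC-like) cells (17.5% and 16.8%) and macrophage-like cells (14.6% and 12.5%). In KO the CD8 T cell-like class and not the B cell-like class was highest, but this order depended on the processing. With a mitochondrial limit of 10% KO B cell-like cells had 27.3% and CD8 T cell-like cells 26.3%, and in the largest clusters 27.2% and 26.6%. The B cell-like class was also highest without the highest doublet scores and with the members in the clustering. In the other alternatives with both values the CD8 T cell-like class stayed higher. Neutrophil-like cells were lower still, at 7.99% in 145 WT cells and 4.81% in 24 KO cells, too few for a comparison.

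**Figure D1:**
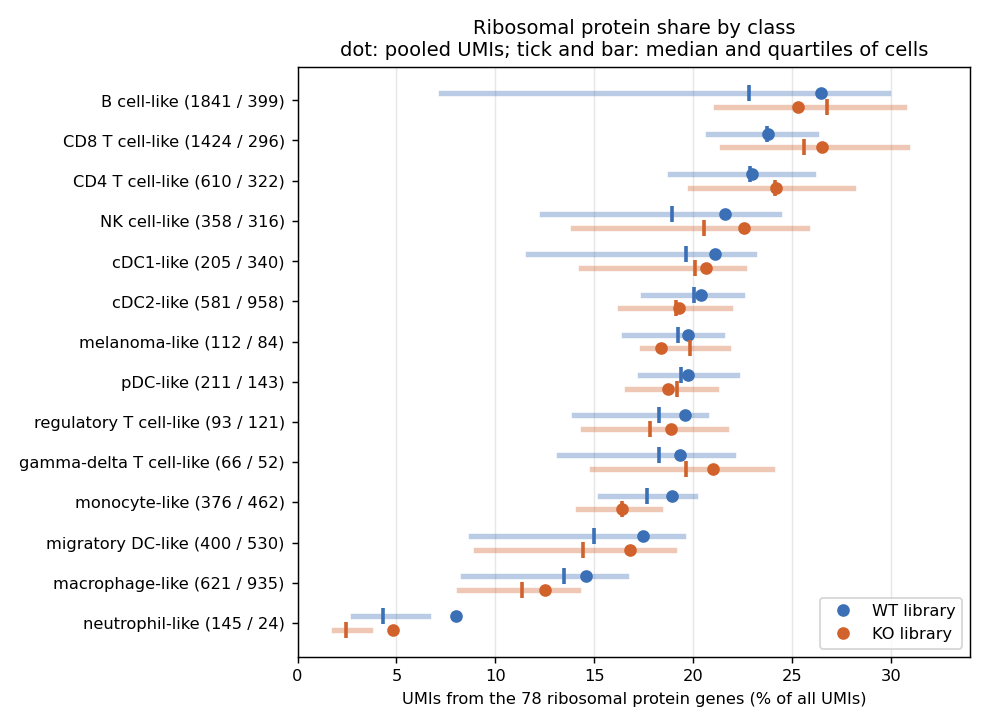
Share of all UMIs that came from the 78 ribosomal protein genes (x axis, %) in 14 classes (y axis, number of WT and KO cells in brackets). Dots show pooled UMIs, ticks the median cell and bars the quartiles of cells. Macrophage-like cells lie at 14.6% (WT) and 12.5% (KO), CD8 T cell-like cells at 23.8% and 26.5%.

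In WT, CD8 T cell-like cells had 0.71 more on the log2 scale than macrophage-like cells, and in KO 1.09 more. Quartiles of cells did not overlap between these classes in either library: 20.7% to 26.2% against 8.38% to 16.6% in WT, and 21.5% to 30.8% against 8.14% to 14.2% in KO. Neighbours in the order overlapped: in WT the quartiles were 17.5% and 22.5% in cDC2-like, 17.3% and 22.2% in pDC-like and 16.5% and 21.4% in melanoma-like cells. Small-subunit members held 0.745 to 0.894 times the UMIs of large-subunit members in every one of the 13 classes and both libraries.

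Below the level of classes the clusters spread further. The highest share was in an unnamed cluster led by Dapl1, Igfbp4, Lef1 and Tcf7, genes known from naive T cells, with 35.2% in 130 WT cells and 37.7% in 36 KO cells. The lowest shares outside neutrophil-like cells were in 4 clusters whose median mitochondrial share lay between 6.75% and 10.8%. They held 1628 WT and 487 KO cells with median UMIs of 791 to 2458 and member shares of 6.08% to 12.01%. The other 22 clusters had median mitochondrial shares of 0.852% to 4.24%. The 4 clusters include a B cell-like cluster led by Ebf1 and Bank1 (8.55% in WT, 7.97% in KO) and a migratory DC-like cluster led by Cacnb3 (9.17% and 7.84%). The part of the mitochondrial share and the depth in these values was not tested.

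**Figure D2:**
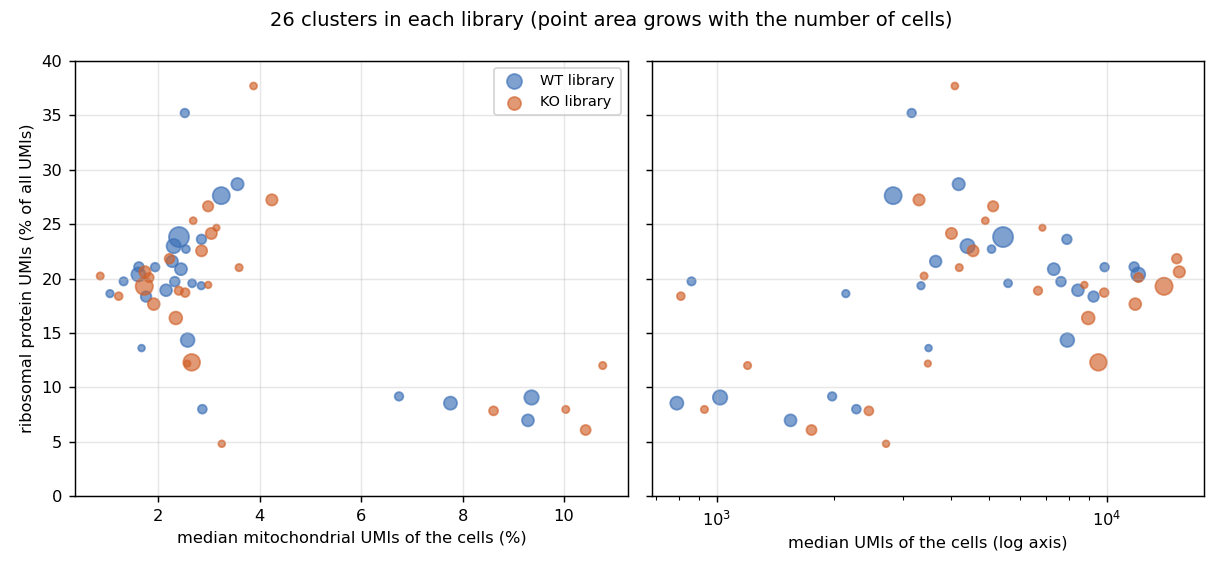
Share of UMIs from the 78 genes (y axis, %) in each of 26 clusters per library against the median mitochondrial share of its cells (left, %) and their median UMIs (right, log axis). The 4 clusters with a median mitochondrial share between 6.75% and 10.8% lie between 6.08% and 12.01%.

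The members kept step with each other across classes, with a few exceptions. Over 26 points (13 classes in each of the libraries, which share a library and a depth), each member's CPM was correlated with the sum of the other members, as a description. Pearson's r was at least 0.9 for 19 members, between 0.5 and 0.9 for 46 and below 0.5 for 13, with a median of 0.81. Among the lowest were Rps27l (-0.60), Rps4l (-0.40), Rpl10 (-0.09), Rps25 (0.10) and Rpl31 (0.11). Among 2922 genes that are no members, the ones whose pattern was most like the member sum were Gm11478 (r = 0.84), Fam204a (0.81), Swt1 (0.81), Rack1 (0.81), Vps13a (0.80), Stk38 (0.78), Pnn (0.78), Eif3e (0.78), Gm10076 (0.78) and Pura (0.77). Gm10076 shares sequence with the member Rpl41, as 35.9% of the stretches at the 3′ end of Rpl41 also occur in it. Its counts may hold Rpl41 reads, which was not tested. The listed genes are therefore not all shown to be independent of the members.

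To separate a member's own pattern from the total, each was taken as a share of the ribosomal protein UMIs of its class and library, and expressed as a log2 difference from the median over the 13 classes of that library. Between the lowest and highest class, the median member ranged by 0.61. The range was under 1 for 62 members and at least 1 for 16. Among the widest were Rps4l (5.06), Rps27l (4.32), Rpl31 (2.21), Rps27 (1.55), Rps2 (1.42), Rpl10 (1.39) and Rps19 (1.32), and the narrowest was Rpl23 (0.20). In both libraries 19 of 78 members were past 0.5 in at least 1 class, in 42 pairs of member and class. On the same scale 92.4% of 3004 genes with a mean of at least 50 CPM were past it. The scale divides by the members' own sum, which centres the members and moves other genes with the ribosomal protein share of the class. The difference between these counts is therefore partly built in and no finding about the members. Among cells with 5000 to 20000 UMIs, where 9 classes had enough cells, 12 members were past it, 9 of them among the 19.

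Among small-subunit members, Rps27l had the widest range after Rps4l, which rests on few UMIs and is described further on. Rps27l lies on chromosome 9 (66946086 to 66949516, plus strand, GRCm38), codes for a close paralogue of Rps27 and is known as a target gene of p53. In migratory DC-like cells it reached 912 CPM in WT and 1022 in KO, and in melanoma-like cells 866 and 867. cDC1-like cells had 465 and 438, cDC2-like cells 347 and 324, macrophage-like cells 312 and 250.4, and monocyte-like cells 292 and 274. Lymphoid classes were low, with 103 and 70.9 CPM in CD8 T cell-like, 112 and 90.4 in CD4 T cell-like, 118 and 144 in NK cell-like and 88.7 and 60.2 in B cell-like cells. Regulatory T cell-like cells (270.3 and 181) and pDC-like cells (231 and 228) lay between. Of the 13 classes, no lymphoid one other than regulatory T cell-like cells reached the level of a myeloid or dendritic one in the same library; neutrophil-like cells, outside the 13, had 125 CPM in WT and 92.1 in KO (7 UMIs).

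Rps27, its partner, was ordered differently. Its share of UMIs was highest in B cell-like cells (7471 CPM in WT, 8903 in KO) and lowest in melanoma-like cells (2084 and 2022). Rps27l made up 1.17% (WT) and 0.672% (KO) of the UMIs of the pair in B cell-like cells, 18.9% and 21.9% in migratory DC-like cells, and 29.4% and 30.001% in melanoma-like cells. The pair differs in the risk of misassigned reads: 1.85% of the 90-base stretches at the 3′ end of Rps27l occur in another annotated transcript, and 51.7% of those of Rps27, the closest being Rps27rt. With every cell thinned to 1000 UMIs, 41.8% of WT and 43.8% of KO migratory DC-like cells had an Rps27l UMI, against 9.32% and 8.45% among CD8 T cell-like cells and 6.49% and 2.72% in the B cell-like class. Thinning left out shallower cells: 15 and 9 migratory DC-like, 8 and 0 CD8 T cell-like, and 409 and 31 B cell-like cells. At full depth the shares were 77.8% and 78.3% (median 7542 and 9630 UMIs) in migratory DC-like cells, 41.6% and 30.1% in CD8 T cell-like cells (median 5399 and 5100 UMIs), and 15.8% and 10.3% in B cell-like cells (median 2452 and 3166 UMIs).

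Rps2, at the messenger RNA entry of the ribosome, was higher in melanoma-like cells (3920.5 and 3673 CPM, 1.17 above the class median in both libraries). Rps19, whose loss in people causes Diamond-Blackfan anaemia, was 0.92 (WT) and 0.94 (KO) above the median in migratory DC-like cells, at 4044 and 3699.9 CPM. Rpsa, also known as the laminin receptor, was 0.53 and 0.55 above it in the same cells. Rps24 lay at -0.74 and -0.78 in melanoma-like cells.

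Among large-subunit members, Rpl31 (chromosome 1, 39367842 to 39371911, plus strand), a protein at the exit of the peptide tunnel, had the widest range. pDC-like cells had 1708 CPM in WT and 1713 in KO, and melanoma-like cells 1218 and 1206. The other 11 of the 13 classes lay between 342 and 673 CPM. Relative to the total, pDC-like cells were 1.87 and 1.95 above the class median, with 30.1% of 3′ stretches shared with other transcripts. Rpl10, which joins the large subunit late in its assembly, was 0.65 and 0.62 above the median in pDC-like cells (3561 and 3382 CPM) and below it in CD8 T cell-like (1674 and 1794 CPM, -0.71 and -0.79) and CD4 T cell-like cells (-0.69 and -0.74). Rpl13a was higher in CD8 T cell-like (524 and 584 CPM, 0.72 and 0.54) and CD4 T cell-like cells (0.61 and 0.69). Rpl7a was lower in B cell-like cells (-0.61 and -0.66), and the stalk protein Rplp1 lower in migratory DC-like (-0.52 and -0.50) and higher in melanoma-like cells (0.53 and 0.65).

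**Figure D3:**
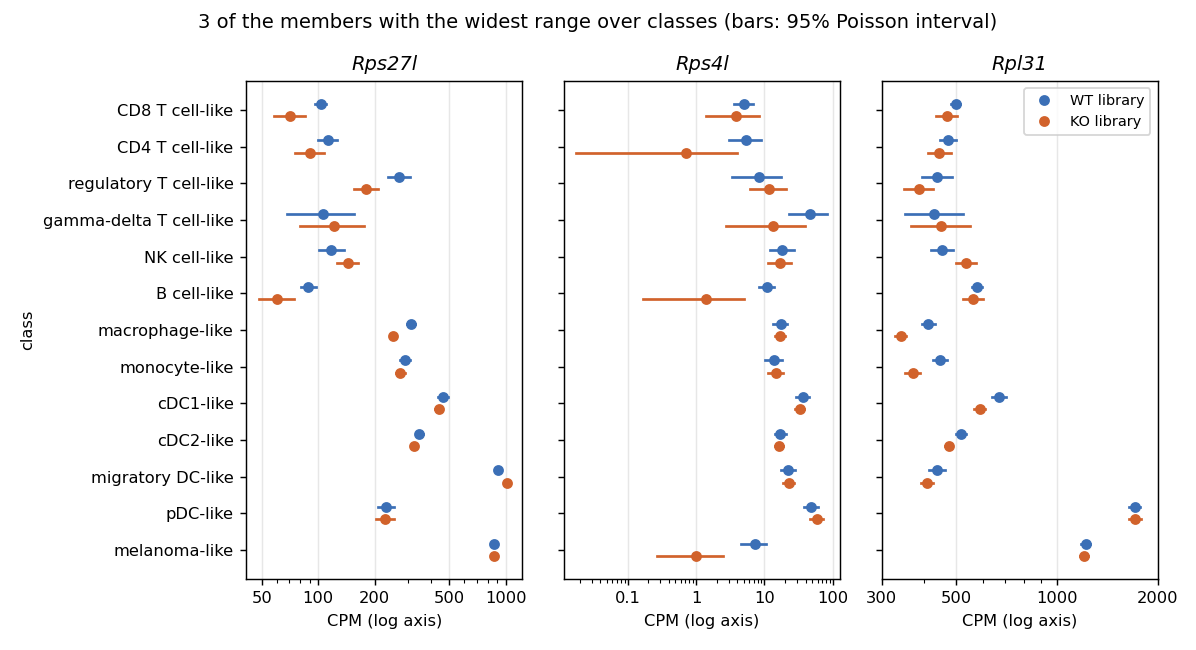
CPM (log axes) of 3 of the members with the widest range, in 13 classes (y axis), with WT in blue and KO in orange and bars for exact 95% Poisson intervals. Rps27l reaches 912 and 1022 CPM in migratory DC-like cells and Rpl31 1708 and 1713 CPM in pDC-like cells.

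The counts of members past 0.5 stand beside those of all 3004 genes as follows. Because the scale divides by the members' own sum, the shares of all genes also follow the ribosomal protein share of the class. They are no like-for-like background for the members. In CD8 T cell-like cells 1 member was higher (6.46% of all genes) and 4 lower (28.1%), and in CD4 T cell-like cells 1 higher (8.69%) and 4 lower (19.1%): Rpl13a higher, and Rpl10, Rps27l and Rps4l among the lower ones in both. Rps27l was the only such member in gamma-delta T cell-like (lower, 8.66% of genes; none higher, 15.8%), NK cell-like (lower, 12.7%; none higher, 9.72%) and macrophage-like cells (higher, 32.3%; none lower, 5.69%). B cell-like cells had 3 lower (42.2%), Rpl7a, Rps27l and Rps4l, and none higher (5.96%). cDC1-like cells had 3 higher (10.8%), Rpl14, Rps27l and Rps4l, and 1 lower (21.7%), Rps27. Migratory DC-like cells had 4 higher (18.9%), Rps27l, Rps19, Rpsa and Rps4l, and Rplp1 lower (17.5%), and pDC-like cells had 3 higher (18.1%), Rpl31, Rpl10 and Rps4l, and none lower (9.99%). Regulatory T cell-like (18.0% of genes higher, 1.26% lower), monocyte-like (18.2% and 6.09%) and cDC2-like cells (15.9% and 10.3%) had no such member.

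Melanoma-like cells were past 0.5 for 14 members, 10 higher (among them Rpl31, Rps6, Rpl32, Rps15, Rplp1, Rps27l, Rpl14, Rpl23a and Rps2) and 4 lower (among them Rps27, Rps4l and Rps24), beside 29.8% of all genes higher and 31.1% lower. These cells were in a sort for CD45+ cells, and few of them carried the signal. In WT, 37 of 112 cells had at least 10000 UMIs and held 97.3% of the UMIs of the class, and in KO 26 of 84 held 98.7%. In the shallow rest, with a median of 674 and 654 UMIs, Rps2 was 1.35% and 1.30% of the member UMIs, against 2.01% in the deep cells of both libraries. Rpl31 was 0.552% and 0.387% of the member UMIs in the shallow cells against 0.619% and 0.660% in the deep ones. Rps27l was 0.288% and 0.279% in the shallow cells against 0.444% and 0.474% in the deep ones, and Rps27 1.46% and 1.55% against 1.04% and 1.09%, so the share of Rps27l in the pair given above rests mainly on the 37 and 26 deep cells. Markers of other cells also differed between the libraries in this class. Fibroblast markers were at 2244 CPM in WT and 24.8 in KO and erythroid markers at 5711 and 75.95 CPM, all 7 of each list lower in KO, where 1 fibroblast and 4 erythroid markers were at 0. Their part in the values of this class was not tested.

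Rps4l, named after Rps4x, is annotated as a transcribed processed pseudogene (chromosome 6, 148354656 to 148355598, plus strand), and its values rest on few UMIs. pDC-like cells had 48.4 CPM in WT (82 UMIs) and 57.9 in KO (86 UMIs), and cDC1-like cells 36.0 and 32.7. CD8 T cell-like cells had 5.01 (40 UMIs) and 3.80 CPM (6 UMIs), and CD4 T cell-like cells 5.35 (15 UMIs) and 0.706 (1 UMI). After thinning to 1000 UMIs, 4.27% of WT and 9.09% of KO pDC-like cells had an Rps4l UMI, against 0.494% and 0.676% of CD8 T cell-like cells. At full depth the shares were 17.1% and 22.4% (median 7642 and 9862 UMIs) against 2.18% and 1.35%. Gamma-delta T cell-like cells had 46.5 CPM from 11 UMIs in WT and 13.4 CPM from 3 UMIs in KO, and the interval of their log2 ratio, -4.27 to 0.13, includes 0. In the 13 classes Rps4l was at most 1.66% of the UMIs of Rps4l and Rps4x together, and in WT neutrophil-like cells 2.21% (10 UMIs of Rps4l).

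The paralogues outside the rule also varied by class. Rpl22l1, paired with Rpl22, a protein known for its part in T cell development, made up a median of 25.1% (WT) and 23.8% (KO) of the pair, from 16.7% and 16.4% in cDC1-like to 41.2% and 39.5% in melanoma-like cells. Rpl36al was 13.9% and 14.1% of its pair with Rpl36a in B cell-like and 30.2% and 35.3% in melanoma-like cells, although all 3′ stretches of Rpl36a also occur in another transcript. In the 13 classes Rpl7l1 was at most 8.82% of its pair with Rpl7. Rpl39l and Rpl3l, known from testis and from muscle, were at or below 0.113% and 0.567% of their pairs in the same classes.

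KO and WT cells were then compared member by member in the 9 classes with at least 200 cells in each library, with a member called where its log2 ratio of KO over WT CPM was past 0.5 and its mean CPM at least 50. 77 members passed this level in every class and Rps4l passed it in none. Of 693 pairs of member and class, 4 were called higher and 3 lower in KO. In CD8 T cell-like cells 3 members were higher, where 3.39% of all 2627 genes were, and 1 lower, where 3.54% were. In NK cell-like cells 1 was higher (1.97% of all genes) and none lower (2.96%). In B cell-like cells 1 was lower (5.83%) and none higher (3.66%), and in monocyte-like cells 1 was lower (5.15%) and none higher (10.7%). None was called in CD4 T cell-like (3.37% of genes higher, 2.14% lower), macrophage-like (5.83% and 2.03%), cDC1-like (1.56% and 0.701%), cDC2-like (4.77% and 1.5%) or migratory DC-like cells (2.71% and 1.67%). These counts are near or below the shares for all genes, and most differences described next are smaller than the limit.

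In macrophage-like cells the members were lower in KO as a group. The class share was 14.6% in WT and 12.5% in KO, a log2 ratio of -0.22, and 76 of 77 members had a negative ratio, with a median of -0.22 against 0.01 for all 2607 genes. With a limit of 0.25, 33 of 77 members were lower and none higher, where 13.2% and 20.5% of all genes were. The lowest ratio was that of Rps15a, a small-subunit protein, with 2284 CPM in WT and 1756 in KO (-0.38, interval -0.42 to -0.34). Rpl11 (1986 and 1588 CPM), which can bind the p53 regulator Mdm2, Rps13 (1894 and 1516) and Rps26 (2036 and 1632) each had -0.32. The highest were Rps6, the substrate of S6 kinase, with 593 and 602 CPM (0.02), Rps15 (689 and 688 CPM), Rpl23a (336 and 332 CPM) and Rpl27a (1071 and 1002 CPM).

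The larger macrophage-like cluster, led by Arg1 and Cxcl1 (557 WT and 886 KO cells), had 14.3% and 12.3%. The smaller one, led by Ccl8, Igf1 and C1qa (64 and 49 cells), had the other sign, with 18.6% in WT and 20.2% in KO (0.12). In cells with 5000 to 20000 UMIs the class had 15.1% and 12.6% (-0.26), and in cells with at most 5% mitochondrial UMIs 15.2% and 12.9% (-0.24). Other quantities moved with the class. Median UMIs were 7301 in WT and 9297 in KO, and the median mitochondrial share 2.42% and 2.63%. The 9 T cell markers summed to 293 CPM in WT and 57.7 in KO and the 9 B cell markers to 273 and 67.3, all lower in KO and none at 0. Erythroid markers were at 21.4 and 3.23 CPM, with 4 of 7 lower in KO and 2 (WT) and 3 (KO) at 0. Of 10 immediate early genes, which dissociation can induce, 5 were higher in KO (Fosb, Jun, Junb, Egr1 and Ier2) and none lower. Their part in the member difference was not tested. Over the alternatives that gave a value the class ratio lay between -0.37 and -0.17.

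Monocyte-like cells of the main clustering showed a difference of near-equal size, 18.9% in WT and 16.4% in KO (-0.21). There 72 of 77 members were negative, with a median of -0.22 against 0.06 for all 2698 genes. At the 0.25 limit 31 members were lower and none higher, beside 16.1% and 29.0% of all genes. Rps20, a small-subunit protein at the head of the particle, was called lower, with 3349 CPM in WT and 2354 in KO (-0.51, interval -0.55 to -0.47). No other transcript shares its 3′ stretches, but its ratio ranged from -0.51 to -0.20 over 11 ways of filtering and clustering and was past the limit in 4 of them. Rps2 (1908 and 1451 CPM, -0.40), Rplp1 (3013 and 2313, -0.38) and Rpl3 (1664 and 1291, -0.37) followed. Rps6 was at the other end, with 685 CPM in WT and 759.6 in KO (0.15). The 9 T cell markers were at 724 CPM in WT and 93.4 in KO and the 9 B cell markers at 1661 and 145 in this class, all lower in KO and none at 0. Migratory DC markers, 9 genes, were at 1556 and 298 CPM, 5 of them lower in KO and none at 0. That list includes Ccl5 and is not particular to migratory DC-like cells (13173 CPM in WT, 13356 in KO). It also summed to 20433 and 16162 CPM in CD8 T cell-like and 11584 and 10247 CPM in NK cell-like cells. Of 10 immediate early genes 1, Egr1, was higher, with a list median of 0.40. Median UMIs were 8445 and 8976 and mitochondrial shares 2.15% and 2.34%. Their part in the difference was not tested. The class ratio lay below 0 in the alternatives that gave a value, between -0.21 and -0.05. It depended on the clustering. The ratio was -0.047 with a mitochondrial limit of 10%, -0.053 with at least 1000 UMIs and 500 genes, and -0.046 with components centred per library. It was -0.066 with the members in the clustering, -0.16 with a limit of 25% and -0.21 without the highest doublet scores.

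CD8 T, CD4 T, gamma-delta T and NK cell-like cells had ratios of the other sign. CD8 T cell-like cells had a share of 23.8% in WT and 26.5% in KO (0.16), and 59 of 77 members were positive, with a median of 0.14 against -0.04 for all genes. At the 0.25 limit 21 members were higher and 2 lower, beside 14.6% and 20.6% of all genes. Rpl12, at the base of the stalk that recruits elongation factors, had the largest ratio, with 1953 CPM in WT and 3089.6 in KO (log2 0.66, interval 0.62 to 0.71). Its 3′ stretches are its own, and its ratio lay between 0.65 and 0.71 in each of 11 settings in which the class could be compared. Rpl36a was at 1029 CPM in WT and 1516 in KO (0.56) and Rps27 at 5697 and 8136 CPM (0.51), both with transcripts that share part or all of their 3′ ends. Over the same settings Rpl36a lay between 0.53 and 0.57 and Rps27 between 0.46 and 0.52, so the call of Rps27 was lost in some. Rps27l was lower, with 103 CPM in WT and 70.9 in KO (-0.54, interval -0.84 to -0.26, from 825 and 112 UMIs), and between -0.71 and -0.48 over the settings. The class share was higher in KO in the main CD8 cluster (23.8% and 26.6%) and in the one led by interferon-induced genes such as Ifit3 (22.7% and 25.3%). In this class median UMIs were 5399 and 5100, median mitochondrial shares 2.41% and 2.94%, and the summed B cell markers 211 and 123 CPM, with 7 of 9 lower and 2 at 0 in KO. Erythroid markers were at 16.0 and 0.633 CPM, with 6 of 7 lower and 6 at 0 in KO. Of 9 immediate early genes that could be tested, 3 were higher (Fos, Fosb and Egr1). Their part in the difference was not tested.

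CD4 T cell-like cells had 23.0% and 24.2% (0.07), and 23.6% and 23.7% (0.004) among cells with 5000 to 20000 UMIs. Over all cells of the class, 52 of 77 members were positive. Rpl12 (2153 and 2843 CPM, 0.40), Rps15 (0.37), Rps27 (6244 and 8052 CPM, 0.37) and Rpl5 (0.35) had the highest ratios and Rps27l (-0.31) and Rpl24 (-0.27) the lowest. NK cell-like cells had 21.6% and 22.6% (0.06), with 62 members positive. There Rps6 was called, with 667 CPM in WT and 946 in KO (0.50, interval 0.39 to 0.62). Other transcripts share 80.1% of its 3′ stretches, and its ratio lay between 0.31 and 0.51 over the alternatives. Rps6 and Rps15 were each among the 4 highest ratios in 6 of the 9 classes, Rpl12 and Rpl13a in 5, and Rpl24 among the 4 lowest in 4. Rps6 had a positive ratio in all 9 classes, from 0.02 to 0.50, while 4 members, among them Rpl11, Rpl29 and Rps10, had a negative one in all 9; all classes come from the same 2 libraries. Median mitochondrial shares were 2.30% and 3.04% in CD4 T cell-like and 2.27% and 2.85% in NK cell-like cells. The 9 B cell markers were all lower in KO in both classes, at 229 and 153 CPM in CD4 T cell-like cells (3 at 0 in KO) and 404 and 149.6 CPM (2 at 0 in KO) in NK cell-like cells, where the 9 T cell markers were also all lower (3157 and 2356 CPM). Erythroid markers were at 614 CPM in WT and 0.706 in KO in CD4 T cell-like cells, with 5 of 7 lower and 6 at 0 in KO, and at 16.99 and 2.39 CPM in NK cell-like cells. Of the immediate early genes, Fos, Fosb and Egr1 were higher in CD4 T cell-like cells, and in NK cell-like cells Fosb was higher and Hspa1a, Hspa1b and Dnajb1 lower. The part of these values in the differences was not tested.

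**Figure D4:**
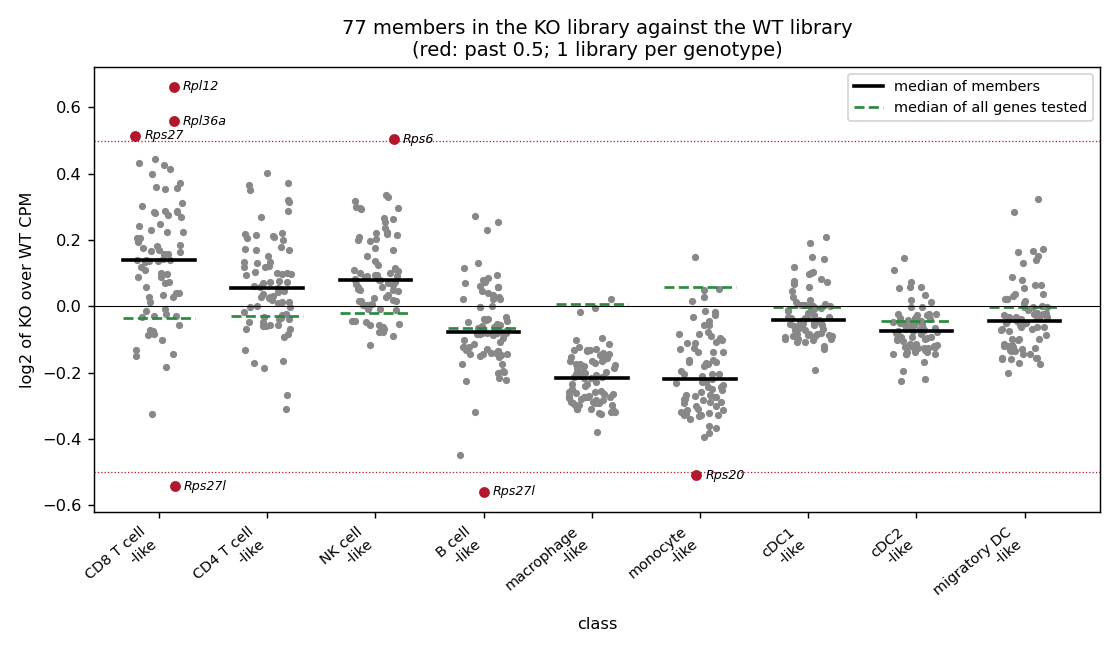
Log2 ratio of KO over WT CPM (y axis) of 77 members in 9 classes (x axis). Points are members, red past 0.5, the black line is their median and the green dashed line the median of all genes tested. The median of the members lies at -0.22 in macrophage-like and monocyte-like cells and at 0.14 in CD8 T cell-like cells.

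In B cell-like cells the class held different clusters in the libraries (417, 490 and 934 WT cells against 18, 50 and 331 KO cells), so its 26.5% and 25.3% are no like-for-like comparison. In the main cluster, led by Vpreb3 and Fcmr, the shares were 27.6% and 27.2% (-0.02). Rps27l was called lower in the class (88.7 and 60.2 CPM, -0.56), with a ratio from -1.53 to -0.11 over the alternatives. Rps12 (4576 and 3357 CPM, -0.45) and the stalk protein Rplp0 (3963 and 3180.4 CPM, -0.32) were also low, and Rpl13a (0.27), Rps27 (0.25) and Rpl12 (0.23) high. In the dendritic classes the ratios were small. They were negative for 52 of 77 members in cDC1-like, 68 in cDC2-like and 55 in migratory DC-like cells. The median of all genes tested was -0.002 in cDC1-like, -0.04 in cDC2-like and -0.002 in migratory DC-like cells. The medians of the members were -0.04 in cDC1-like, -0.07 in cDC2-like and -0.04 in migratory DC-like cells, and the widest ratios were those of Rps15 in cDC1-like (957 and 1107 CPM, 0.21), Rps10 in cDC2-like (738 and 631 CPM, -0.23) and Rpl13a in migratory DC-like cells (175 and 219.6 CPM, 0.32). In cDC2-like cells, whose share was 20.4% and 19.3%, the 9 T cell markers were at 582 CPM in WT and 65.2 in KO and the 9 B cell markers at 388 and 129, all lower in KO and none at 0. Erythroid markers were at 512 and 0.438 CPM there, with 5 of 7 lower and 3 at 0 in KO. In cDC1-like and migratory DC-like cells the 9 T cell and 9 B cell markers were also all lower in KO. Their part in the differences was not tested.

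Other genes of the translation apparatus were read from lists. Of the ribosomal proteins with other names, Fau and Rack1 were not called in any of the 9 classes. Rack1, a scaffold protein on the small subunit, was at 1175 and 1049 CPM in macrophage-like and 2013 and 2333 CPM in CD8 T cell-like cells. Of 16 elongation factors and other mRNAs known to carry the TOP motif, none was called in 8 classes. In monocyte-like cells Eef1g was lower (282 and 193 CPM, -0.55, beside 5.15% of all genes) and the median was -0.07. The median of this list in macrophage-like cells was -0.21, near that of the members, and in CD8 T cell-like cells -0.07, below that of the members. The summed share of the list went the same way as this median in macrophage-like cells and the other way in CD8 T cell-like cells. It was 1.48% of UMIs in WT and 1.38% in KO macrophage-like cells, and 2.13% and 2.31%, higher in KO, in CD8 T cell-like cells. Eef1a1, which brings aminoacyl-tRNA to the ribosome, was at 4224 and 4030 CPM in macrophage-like and 5614 and 6494 CPM in CD8 T cell-like cells.

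Of 25 ribosome biogenesis genes, 11 could be tested in macrophage-like cells, with a median of -0.36 and Ddx21, an RNA helicase of the nucleolus, called lower (134 and 94.0 CPM, -0.51). There 2.03% of all genes were lower. In monocyte-like cells the median of 11 was -0.25, with Npm1, a nucleolar chaperone (667 and 431 CPM, -0.63), and Mybbp1a (-0.56) lower, beside 5.15% of all genes. In B cell-like cells 4 of 14 were lower (Nop58, Dkc1, Ddx21 and Mybbp1a), beside 5.83% of all genes. That class held different clusters in the libraries, so this is no like-for-like comparison. None was called in CD8 T, CD4 T or NK cell-like cells. Of the initiation genes, Larp1 was higher in CD4 T cell-like cells (42.8 and 60.7 CPM), Eif4a1 in NK cell-like (235 and 346 CPM) and Eif4e and Eif2ak2 in monocyte-like cells, and none was lower in any of the 9 classes. Of all genes, 3.37%, 1.97% and 10.7% were higher in these classes. Of 78 mitochondrial ribosomal protein genes, 32 could be tested in CD8 T cell-like cells. There 5 were lower (Mrps16, Mrpl57, Mrpl58, Mrpl36 and Mrpl43), beside 3.54% of all genes, and none higher (3.39%). Their median was -0.25, opposite in sign to that of the cytosolic members. The median was also below 0 in CD4 T cell-like (-0.26), macrophage-like (-0.23, over 25 genes), cDC1-like (-0.17), cDC2-like (-0.17), migratory DC-like (-0.13), B cell-like (-0.12) and monocyte-like cells (-0.11). Only in NK cell-like cells was it above 0 (0.07). Of 11 cell cycle genes at most 4 could be tested in a class. Pcna was higher in NK cell-like cells (1.97% of all genes) and Tubb5 lower in monocyte-like cells (5.15%). Hmgb2 was lower in cDC2-like (1.5%) and migratory DC-like cells (1.67%). Of 8 genes of ribosome quality control at most 2 could be tested in a class and none was called.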

How the data were processed

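The deposited values are UMI counts per gene and cell barcode, made by the authors with Cell Ranger 3.1.0 after bcl2fastq 2.20, with Seurat 4.0.1 also named, per the submitters' processing notes; the matrix header gives Cell Ranger 4.0.0. The 55450 gene identifiers were all found in GENCODE M21 (GRCm38). Members and gene lists were chosen with earlier results of these data known.

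Cells with fewer than 200 genes or over 15% mitochondrial UMIs were removed. The doublet caller marked 2 cells, so it did not work and doublets are largely still present; the labels do not mention their removal. Cells of both libraries were clustered together (scanpy 1.11.5; 2000 variable genes without the members, 30 components, 15 neighbours, Leiden resolution 1) and named by the markers of fixed lists; the naming rule was extended after the clusters were seen. Counts were summed by class and library. Shares need 50 cells and member comparisons 200 cells per library. A gene was tested at a mean of at least 50 CPM and called past a log2 ratio of 0.5. Intervals are Clopper-Pearson for shares, Poisson for CPM and conditional binomial for ratios (scipy 1.17.1), and the limit for a count of 0 is 3 counts. Detection was compared after thinning cells to 1000 UMIs. Genes named are paralogue pairs, the 5 most and 5 least abundant members, the 8 with the widest range over classes, those called, the 4 highest and 4 lowest ratios of a class, the 10 genes of most like pattern, and the called genes of other lists; other members named (such as Rpsa, Rpl7a and Rpl14) were chosen for being past 0.5 after their values were seen. Some genes that the rule names are not reported here. The steps were tested on simulated data. Alternatives changed the mitochondrial limit, depth filter, doublet removal, clustering, denominators and call limits. Reads of near-identical copies may be split or lost: 63 of 78 members share some 3′ stretches of 90 bases with another transcript, 21 of them over 50%.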

Additional observations from a re-analysis of the deposited data

Results flagged for a closer look

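The share of UMIs from ribosomal protein genes differed between KO and WT in opposite directions in different classes. It was higher in KO in CD8 T cell-like cells (log2 ratio 0.16) and lower in macrophage-like (-0.22), monocyte-like (-0.21) and cDC2-like cells (-0.079). Over the alternatives the monocyte-like ratio ranged from -0.21 to -0.05 and the macrophage-like ratio from -0.37 to -0.17. With 1 library per genotype each direction rests on a single pair of libraries, and the difference between the classes was not tested. In cDC2-like cells the median ratio of all genes tested was also below 0 (-0.04, beside -0.07 for the members). There the T cell markers were at 582 CPM in WT and 65.2 in KO and the B cell markers at 388 and 129, and the part of such differences in the shares was not tested.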

How the results depend on the processing

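No paired analysis was possible because each genotype has 1 library. Leaving out a replicate was likewise not possible. The library shares (20.7% WT, 18.5% KO) were 21.1% and 18.7% with a mitochondrial limit of 10%, 20.6% and 18.3% with 25%, and 21.6% and 18.9% with 5%. They were 20.9% and 18.5% with at least 1000 UMIs and 500 genes, 20.7% and 18.5% without the 6% of cells with the highest doublet scores, 21.3% and 18.97% without mitochondrial genes in the total, 18.02% and 17.4% as a mean over cells, and 21.4% and 18.2% in cells with 5000 to 20000 UMIs. CD8 T cell-like over macrophage-like cells (log2 0.71 WT, 1.09 KO) gave 0.66 and 1.04 (limit 10%), 0.65 and 1.01 (25%), 0.66 and 1.06 (5%), 0.70 and 1.17 (doublet scores), 0.66 and 1.07 (members in the clustering), 0.88 and 1.22 (mean over cells) and 0.73 and 1.12 (largest clusters), and in WT 0.67 with 1000 UMIs and 0.67 in the depth window. At Leiden resolution 0.6 there was no value.

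The KO over WT share changed sign with the 25% limit in regulatory T cell-like (0.030) and NK cell-like cells (-0.057), without high doublet scores in B cell-like (0.046) and pDC-like cells (0.044), and as a mean over cells in regulatory T cell-like (0.078), B cell-like (0.29), cDC1-like (0.037) and melanoma-like cells (0.064). KO was then above WT in 8 classes and below in 5, in place of 4 and 9. The KO over WT log2 ratio stayed above 0 in CD8 T (0.14 to 0.17), CD4 T (0.004 to 0.096) and gamma-delta T cell-like cells (0.051 to 0.22). It stayed below 0 in macrophage-like (-0.37 to -0.17), monocyte-like (-0.21 to -0.05), cDC2-like (-0.091 to -0.063) and migratory DC-like cells (-0.098 to -0.005). The CD4 T cell-like ratio was nearest 0 in the depth window, and the migratory DC-like one with centred components. These ranges cover the alternatives that gave a value. None was had for macrophage-like and monocyte-like cells at resolution 0.6, for CD8 T cell-like cells with centred components, and for gamma-delta T cell-like cells at the 10% and 5% limits and in the depth window.

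The 4 higher and 3 lower calls became 0 and 12 with components centred per library. All 12 were in macrophage-like cells, and the CD8 T cell-like class then lacked 200 cells in a library. In the depth window the calls became 0 and 0, but only 4 classes had enough cells and the CD8 T cell-like class was not among them. Its ratios in that window were 0.71 for Rpl12, 0.56 for Rpl36a, 0.46 for Rps27 and -0.71 for Rps27l. The calls became 1 and 1 as a share of ribosomal protein UMIs, and 44 and 71 at a limit of 0.25. In the largest clusters 1 was lower. The 19 members past 0.5 became 12 in the depth window (9 of them shared) and 5 at a limit of 1. After thinning, detection of Rps27l in migratory DC-like over CD8 T cell-like cells went from log2 0.90 to 2.17 (WT) and 1.38 to 2.37 (KO), and of Rps4l in pDC-like over CD8 T cell-like cells from 2.97 to 3.11 and 4.05 to 3.75. The depth window, the 5% limit and the largest clusters were chosen after seeing the data. Where no value shows otherwise, the cause was not tested.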
